A study of Mus musculus with 6 samples.

Results

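The genes described here encode enzymes that conjugate, oxidise or reduce reactive compounds. They were taken as every gene symbol of the count table that names a cytosolic or mitochondrial glutathione transferase (Gsta, Gstk, Gstm, Gsto, Gstp, Gstt or Gstz with a number), a microsomal glutathione transferase (Mgst), an aldehyde dehydrogenase with a full family, subfamily and gene number (Aldh) or an aldo-keto reductase of the Akr1a to Akr1e groups. This gave 60 of 55418 symbols, with 22 Gst, 3 Mgst, 20 Aldh and 15 Akr1 genes. The cells were MOC2, a mouse line of papillomavirus-negative head and neck squamous carcinoma. Untreated cells, passaged 2 times after thawing, were compared as 3 libraries labelled EphA4 knockout and 3 labelled CRISPR control, all with the same batch label. The knockout cells were a single clone, named H3, and the labels do not say whether the control cells were a clone or a pool, so a difference between clones and a difference due to the edit cannot be told apart. Polyadenylated RNA was counted, with 35807059, 36970984 and 37174736 counts in the knockout libraries and 36900259, 35115926 and 41775031 in the control libraries.

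Glutathione transferases attach the tripeptide glutathione to electrophiles, which makes them more soluble and ready for export. Aldehyde dehydrogenases oxidise aldehydes to acids, and serve both in detoxification and in the turnover of amino acids, folate and retinoids. Aldo-keto reductases use NADPH to reduce aldehydes and ketones to alcohols, among them sugars, steroids and products of lipid peroxidation. In many tissues some of these genes are induced through the transcription factor NRF2, which binds antioxidant response elements.

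Transcripts of the edited gene were not lower in the libraries labelled EphA4 knockout. Epha4 averaged 99.7 ± 3.27 CPM (the depth-scaled count, from TMM-scaled library sizes) in the knockout-labelled libraries and 55.1 ± 4.26 CPM in the control libraries (SD, n = 3 each). That is 1.81-fold higher, a log2 fold change of 0.86 (SE 0.06), and Epha4 was called higher by the test described below. Each direction below therefore compares libraries by their label and not by a measured loss of Epha4 RNA. Whether the 3 samples of each label were grown as separate cultures is not stated, and p-values here reflect only the spread among these samples, which may be technical. EphA4 knockout replicate 3 stood apart, with 1.66% of its counts in pseudogenes, against 0.332% and 0.338% in the other knockout-labelled libraries and 0.388% to 0.403% in the control libraries.

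Most of the expressed genes of these families were lower in the knockout-labelled libraries, and none passed the test as higher. Of the 60 genes, 41 passed the filter on low counts and were tested with edgeR's quasi-likelihood test over all 15199 tested genes. At a Benjamini-Hochberg adjusted p under 0.05, 35 were lower, 0 were higher and 6 did not pass, while 71.5% of all tested genes were called in either direction. The 6 had unadjusted p-values over 0.05 as well, and DESeq2 called 0 higher too. Over all tested genes 38.8% were called lower and 32.7% higher. The median log2 fold change was -1.36 over the 41 tested genes and -0.04 over all tested genes. A fall of 2-fold or more, a log2 fold change of -1 or below, was found for 24 of the 41, against 20.1% of all tested genes, and one of 8-fold or more for 12, against 7.99%. In 35 of the 41 every knockout-labelled library lay below every control library, as for 41.4% of all tested genes, and in 0 of the 41 every one lay above. Over all tested genes 76.1% had separate ranges in either direction. The filter required 0.271 CPM in at least 3 libraries. Of the 41 genes, 11 did not reach that level in all 3 knockout-labelled libraries, and 10 of these reached it in all 3 control libraries. A gene that passes the filter through its control libraries is selected for being lower in the others, and 9 of these 11 were called lower. They hold 9 of the 24 falls of 2-fold or more and 7 of the 12 of 8-fold or more. Among the other 30, which did, 26 were lower and 4 did not pass, 15 fell at least 2-fold and 5 at least 8-fold, and the median log2 fold change was -1.01. Without EphA4 knockout replicate 3, 37 of 44 tested genes were lower and 0 higher.

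**Figure D1:**
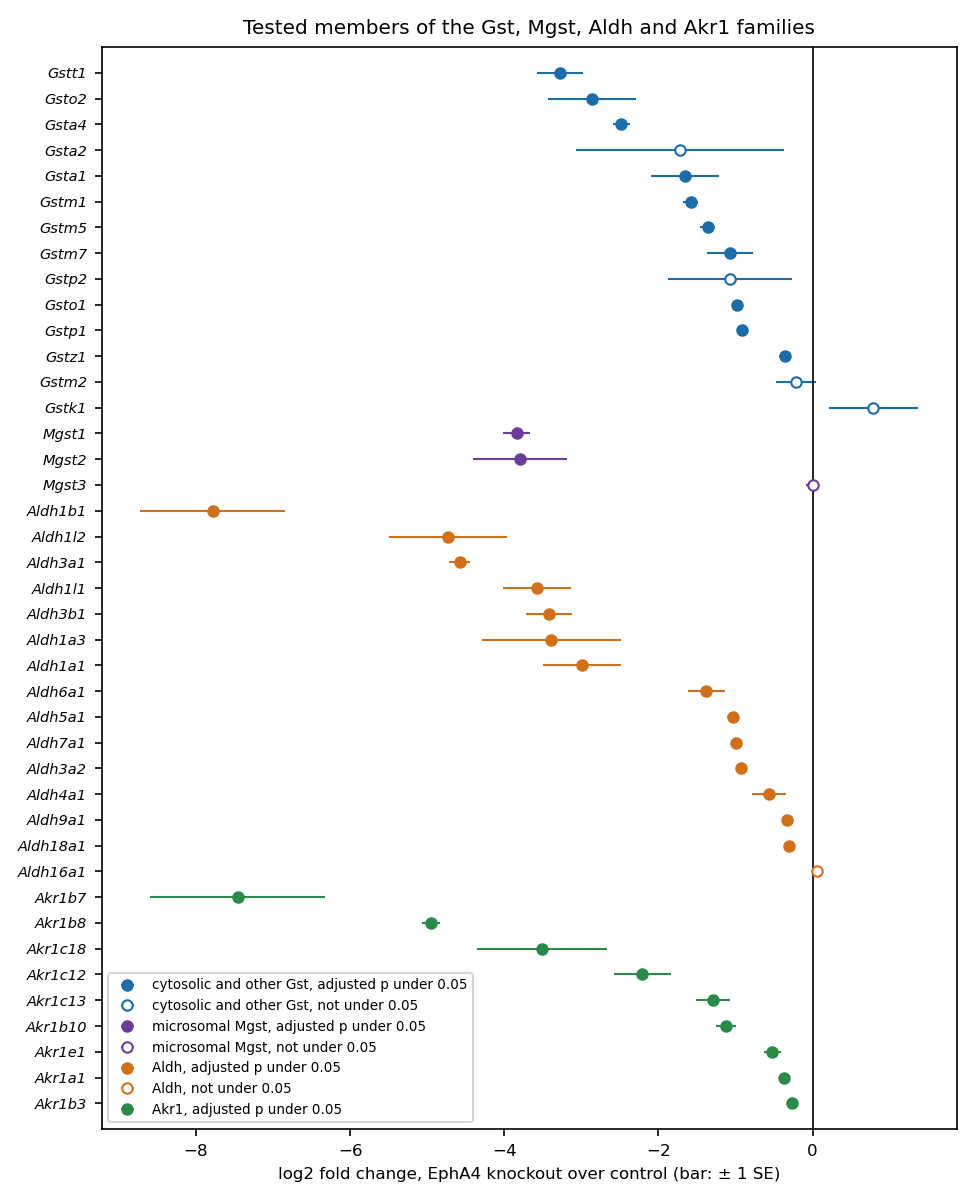
Log2 fold change (EphA4 knockout over control, x axis) of the 41 tested genes, by family, with bars of 1 SE; filled points had an adjusted p under 0.05 in edgeR. All filled points lie left of 0, the open points include Gstk1 at 0.79 and Mgst3 at 0.00, and the points of Aldh1b1 and Akr1b7, at 0 counts in all knockout libraries, depend on the prior count and are no bounds.

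The summed counts were lower in each family. The Gst genes came to 225.4, 216.3 and 223.7 CPM in the knockout-labelled libraries and 485.3, 450.6 and 466.3 CPM in the control libraries, a ratio of 0.475. The Mgst sum was 27.9 ± 2.70 CPM in the knockout-labelled and 54.4 ± 1.48 CPM in the control libraries (SD, n = 3 each). The Aldh sum was 367 ± 2.57 and 546 ± 6.92 CPM, and the Akr1 sum 346 ± 7.13 and 480 ± 15.9 CPM, in knockout-labelled and control libraries. In all 4 families each knockout-labelled library lay below every control library.

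**Figure D2:**
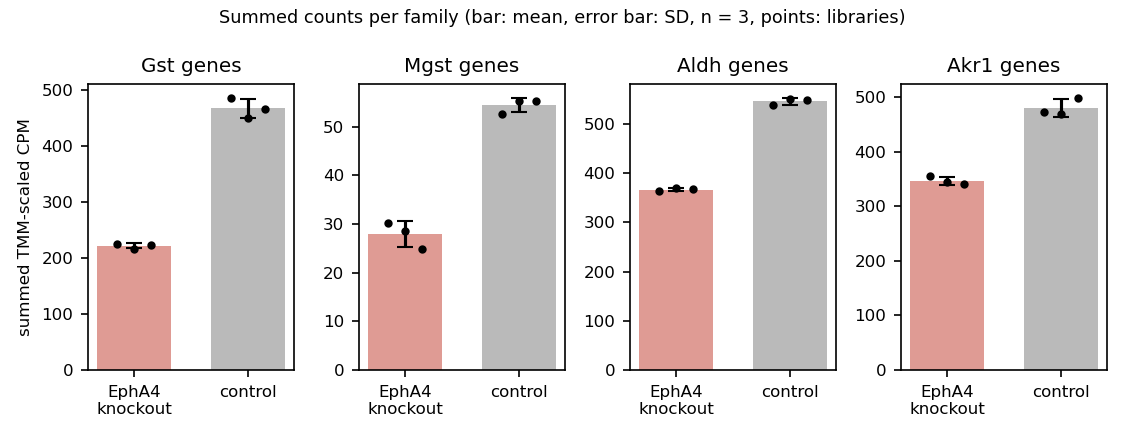
Summed TMM-scaled CPM (y axis, from 0) of the Gst, Mgst, Aldh and Akr1 genes in EphA4 knockout and control libraries; bars are means, error bars SD and points the 3 libraries of a group. No point of a knockout bar reaches a control point.

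The alpha class of transferases includes Gsta4, which conjugates the lipid peroxidation product hydroxynonenal. Gsta4 had 6.54, 6.07 and 7.89 CPM in the knockout-labelled libraries and 37.9, 36.0 and 40.9 CPM in the control libraries. The groups were far apart, a fall of 5.60-fold (log2 fold change -2.48, SE 0.11, adjusted p = 1.3e-07 in edgeR). Gsta1 had 11, 19 and 12 counts in the knockout-labelled and 28, 60 and 50 counts in the control libraries, and was called lower (log2 fold change -1.66). Its reads are uncertain, since 90.5% of the 50-base windows of its transcripts also occur in transcripts of other genes, among them Gsta2. Gsta2 had 12, 1 and 0 counts in knockout-labelled and 0, 17 and 30 counts in control libraries, overlapping ranges that did not pass (adjusted p = 0.28 in edgeR). Gsta3 was near zero, with 0 counts in all knockout-labelled libraries and 19 in all over the control libraries.

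The mu class genes lie next to each other on chromosome 3. Gstm1 had 12.0, 11.7 and 9.74 CPM in knockout-labelled libraries and 35.0, 33.8 and 31.1 CPM in control libraries. Gstm5, on the opposite strand, had 11.4, 9.62 and 12.1 CPM against 30.5, 27.6 and 26.8 CPM in control. Both fell without overlap, Gstm1 by a factor of 2.99 and Gstm5 by one of 2.56. Per kilobase of merged exons they were the 2 most abundant mu genes, at 7.57 and 8.64 CPM in knockout-labelled libraries and 22.6 and 22.1 CPM in control libraries. Gstm7 had 36, 38 and 36 counts in knockout-labelled and 75, 94 and 70 counts in control libraries, a log2 fold change of -1.07 (adjusted p = 0.01 in edgeR) that did not pass without control replicate 2 (log2 fold change -0.85, adjusted p = 0.0606). Their neighbour Gstm2 had 1.48, 1.90 and 1.80 CPM in the knockout-labelled and 2.10, 2.04 and 1.87 CPM in the control libraries. These overlap, and the log2 fold change of -0.22 has a 95% interval of -0.80 to 0.37. Gstm3, Gstm4 and Gstm6 were near zero and were not tested, and Gstm6 was at 0 counts in the knockout-labelled libraries, against 26, 5 and 12 in control.

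The pi and omega classes hold the most abundant transferases. Gstp1, a widely expressed detoxifying enzyme often raised in carcinomas, had 96.6, 85.2 and 89.0 CPM in the knockout-labelled libraries and 180, 161 and 169 CPM in the control libraries. All knockout-labelled values lay below all control values, and the fall was 1.88-fold (SE 0.06 on the log2 scale, adjusted p = 1.1e-06 in edgeR). Of the windows of Gstp1, 33.7% also occur in Gstp2 or the pseudogene Gstp-ps, so some of its reads may have been counted there. Gstp-ps averaged 4.33 ± 1.13 CPM in knockout-labelled and 10.4 ± 0.962 CPM in control libraries (SD, n = 3 each). Gstp2 had 8, 26 and 1 counts in knockout-labelled and 21, 32 and 23 counts in control libraries and did not pass, although it did without EphA4 knockout replicate 2 (log2 fold change -2.36, adjusted p = 0.0337 in edgeR). Gsto1, which reduces dehydroascorbate and mixed disulphides, had 73.5, 76.1 and 79.4 CPM in knockout-labelled libraries and 154, 146 and 153 CPM in control libraries, 1.98-fold lower without overlap. Its neighbour Gsto2 had 2, 6 and 13 counts in the knockout-labelled and 60, 50 and 50 counts in the control libraries, 7.27-fold lower. Gsto2 reached the filter level in 1 knockout-labelled library and in all 3 control libraries, so its direction is not counted as a result. Gstp3 was near zero, with 0 counts in the knockout-labelled and 3, 0 and 9 counts in the control libraries.

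Among the remaining soluble transferases the tested theta and zeta genes were lower, and the kappa gene did not pass. Gstt1, whose substrates include small halogenated compounds, had 0.895, 0.840 and 1.61 CPM in knockout-labelled libraries and 13.5, 9.06 and 9.91 CPM in control libraries. The fall was 9.69-fold, the furthest of the tested Gst genes. Gstz1, which acts in tyrosine breakdown, had 20.6, 21.9 and 19.2 CPM in knockout-labelled and 25.3, 27.7 and 26.4 CPM in control libraries, a small fall (log2 fold change -0.36, SE 0.08, adjusted p = 0.0024 in edgeR). Gstk1, an enzyme of mitochondria and peroxisomes, had 12, 12 and 36 counts in the knockout-labelled and 14, 8 and 14 in the control libraries. The ranges overlap, the highest value being that of EphA4 knockout replicate 3, and the log2 fold change of 0.79 has a 95% interval of -0.53 to 2.12. Gstt2, Gstt3 and Gstt4 were near zero, and Gstt2 kept 2 counts over the knockout-labelled libraries against 25 over control, a ratio of 12.1 whose exact 95% interval for counting error runs over 3.01 to 105.

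The microsomal transferases, membrane proteins of the endoplasmic reticulum and mitochondria, had 2 genes called lower and 1 that did not pass. Over all tested genes 38.8% were called lower. Mgst1, which also reduces lipid peroxides, had 2.35, 1.38 and 1.80 CPM in the knockout-labelled libraries and 24.5, 27.2 and 27.2 CPM in the control libraries. It fell 14.3-fold (log2 fold change -3.84, SE 0.18, adjusted p = 2e-07 in edgeR). Mgst2, which can make leukotrienes, had 1, 11 and 6 counts in knockout-labelled libraries and 94, 89 and 77 counts in control libraries, 13.8-fold lower. Mgst2 reached the filter level in 1 knockout-labelled library and in all 3 control libraries, so its direction is not counted as a result. Mgst3, a relative with peroxidase activity, had 27.8, 26.9 and 22.9 CPM in knockout-labelled libraries and 25.7, 25.5 and 26.3 CPM in control libraries. Its ranges overlap, and its log2 fold change of 0.00 has a 95% interval of -0.19 to 0.19. Per kilobase of merged exons, Mgst3 made up 96.1% of the summed Mgst level in the knockout-labelled libraries and 63.1% in control, and Mgst1 35.2% in control.

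**Figure D3:**
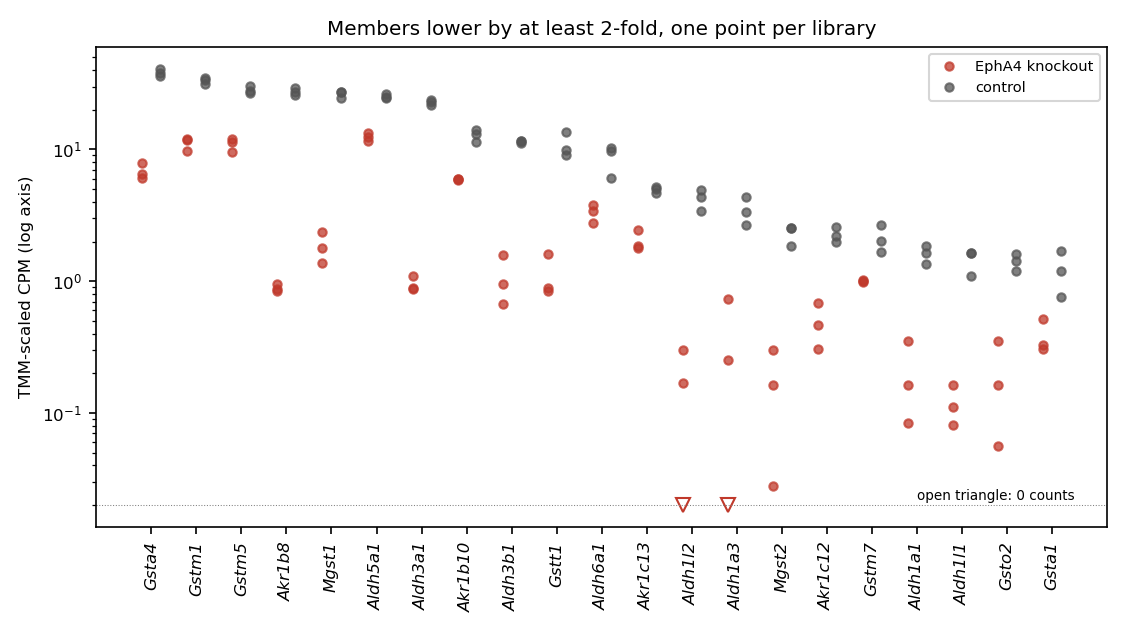
TMM-scaled CPM (log axis) of the 21 genes called lower by at least 2-fold with a mean of at least 1 CPM in either group, each with its 3 EphA4 knockout libraries and its 3 control libraries; open triangles mark libraries with 0 counts, found for Aldh1l2 and Aldh1a3. No knockout point reaches a control point of the same gene, but the genes were chosen for being lower. Of all tested genes 41.4% have such ranges. Aldh1a1, Aldh1a3, Aldh1l1, Aldh1l2, Gsto2 and Mgst2 reached the filter level in all 3 control libraries but not in all 3 knockout libraries.

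Aldehyde dehydrogenases of the first family were low in control and lower still in the knockout-labelled libraries. Aldh1a1 and Aldh1a3 make retinoic acid from retinaldehyde. Aldh1a1 had 3, 6 and 13 counts in the knockout-labelled and 61, 48 and 77 counts in the control libraries, 7.96-fold lower. Aldh1a3 had 9, 0 and 27 counts in knockout-labelled and 161, 95 and 141 counts in control libraries, 10.5-fold lower (log2 fold change -3.39, SE 0.90, adjusted p = 0.0081 in edgeR). For both, EphA4 knockout replicate 3 had the highest count of its group and lay below every control library. Both genes entered the test through control, as described below, so this direction is not counted as a result. Aldh1a2, another retinaldehyde dehydrogenase, had 0 counts in all 6 libraries, which allows up to 0.0273 CPM over the knockout-labelled and 0.0264 CPM over the control libraries.

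The other genes of that family handle folate and acetaldehyde. Aldh1l2, the mitochondrial formyltetrahydrofolate dehydrogenase, had 6, 0 and 11 counts in the knockout-labelled libraries and 181, 120 and 183 counts in the control libraries, 26.6-fold lower. Aldh1l1, its cytosolic counterpart, had 4, 3 and 6 counts in knockout-labelled and 61, 58 and 46 counts in control libraries, 12.0-fold lower. Aldh1b1, a mitochondrial acetaldehyde dehydrogenase, had 0 counts in every knockout-labelled library and 25, 25 and 34 counts in control, which with the knockout sum set to its limit of 3 counts is at least 27.1-fold lower. Aldh1a7 was also at 0 counts in knockout-labelled libraries, against 17, 13 and 3 in control, and was not tested. The 5 tested genes of the family reached the filter level in all 3 control libraries and in at most 1 knockout-labelled library, so they entered the test through control, and their shared direction is not counted as a result.

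Members of the Aldh3 family, which oxidise medium- and long-chain aldehydes, fell by 1.90-fold to 24.0-fold where tested. Aldh3a1, a major enzyme of the cornea, had 1.09, 0.894 and 0.871 CPM in the knockout-labelled libraries and 21.9, 23.1 and 23.7 CPM in the control libraries. It was 24.0-fold lower (log2 fold change -4.58, SE 0.14, adjusted p = 1.6e-08 in edgeR). Aldh3a2, its neighbour on chromosome 11 and the fatty aldehyde dehydrogenase, had 34.6, 35.3 and 36.3 CPM in knockout-labelled and 65.9, 70.4 and 65.7 CPM in control libraries. That was a 1.90-fold fall, again with no overlap. Aldh3b1 had 24, 58 and 35 counts in knockout-labelled and 429, 394 and 485 counts in control libraries, 10.7-fold lower. Aldh3b2 was at 0 counts in the knockout-labelled libraries, against 4, 12 and 8 in control, and Aldh3b3 at 0 in all 6 libraries.

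Further dehydrogenases act in amino acid and carnitine metabolism. Aldh18a1, which makes the precursor of proline and was the most abundant per length of the Aldh genes chosen by symbol, had 203, 212 and 205 CPM in the knockout-labelled libraries and 259, 255 and 254 CPM in the control libraries. The groups were separate and the log2 fold change was -0.31 (SE 0.03, adjusted p = 2.4e-05 in edgeR). Aldh4a1, which acts in proline breakdown, had 3.92, 5.39 and 3.35 CPM in knockout-labelled and 6.18, 6.85 and 5.73 CPM in control libraries. Its log2 fold change was -0.57 with an adjusted p of 0.042 in edgeR. The call did not hold with relative log expression factors (adjusted p = 0.0571), with no filter (0.0652), or without EphA4 knockout replicate 1 (0.145) or 3 (0.0643) or control replicate 1 (0.123), 2 (0.182) or 3 (0.0966). Aldh4a1 also overlaps another gene model on its own strand, which holds 30.0% of its windows. Aldh5a1, of GABA breakdown, had 11.6, 12.4 and 13.3 CPM in knockout-labelled and 25.0, 26.3 and 24.6 CPM in control libraries, 2.04-fold lower. Aldh6a1, of valine breakdown, had 3.80, 3.42 and 2.75 CPM against 6.04, 10.3 and 9.69 CPM in control, 2.61-fold lower. Aldh7a1, of lysine breakdown, averaged 20.4 ± 1.49 CPM in knockout-labelled and 40.4 ± 1.22 CPM in control libraries (SD, n = 3 each), and Aldh9a1, of carnitine synthesis, 54.9 ± 2.12 and 68.9 ± 5.16 CPM. Aldh16a1, a divergent member, had 28.8, 27.7 and 26.0 CPM in knockout-labelled and 26.6, 25.8 and 26.8 CPM in control libraries. Those ranges overlap, and its log2 fold change of 0.06 has a 95% interval of -0.09 to 0.21. Aldh8a1 was near zero, with 0, 1 and 3 counts in knockout-labelled and 1, 6 and 15 counts in control libraries.

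The 9 tested aldo-keto reductases were called lower, as were 38.8% of all tested genes. Of the 9, 7 reached the filter level in all 3 knockout-labelled libraries, all except Akr1b7 and Akr1c18. Akr1b7 and Akr1c18 entered the test through control, so their direction is not counted as a result. Akr1a1, the general aldehyde reductase, had 253, 253 and 242 CPM in the knockout-labelled libraries and 316, 317 and 333 CPM in the control libraries (log2 fold change -0.37, SE 0.04, adjusted p = 2e-05 in edgeR). Akr1b3, the mouse aldose reductase, had 77.8, 69.0 and 77.8 CPM in knockout-labelled and 89.9, 85.7 and 94.8 CPM in control libraries, 1.20-fold lower. Its neighbours on chromosome 6 had larger fold changes. Akr1b8, an aldose reductase-like protein that reduces lipid-derived aldehydes, had 0.867, 0.840 and 0.953 CPM in knockout-labelled and 25.9, 27.3 and 29.2 CPM in control libraries. At 30.9-fold lower (log2 fold change -4.95, SE 0.12, adjusted p = 5.4e-09 in edgeR) this was the largest fall among the genes with at least 1 CPM in either group. Akr1b10 had 5.93, 5.96 and 5.85 CPM against 14.0, 11.4 and 13.2 CPM in control, 2.18-fold lower. Akr1b7 was at 0 counts in the knockout-labelled libraries, against 29, 22 and 15 in control, at least 21.3-fold lower.

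The Akr1c genes, which include hydroxysteroid dehydrogenases, sit in a cluster on chromosome 13 and were all low. Akr1c13 had 1.85, 1.79 and 2.45 CPM in the knockout-labelled libraries and 4.64, 5.18 and 5.04 CPM in the control libraries, 2.44-fold lower. Akr1c12 had 11, 25 and 17 counts in knockout-labelled and 95, 70 and 92 counts in control libraries, 4.63-fold lower. Each holds windows of the other, 28.6% of those of Akr1c12 and 24.2% of those of Akr1c13, so the split between them is uncertain. Akr1c18, which inactivates progesterone, was near zero with 2, 0 and 5 counts in the knockout-labelled and 46, 17 and 24 counts in the control libraries, and was called lower. Akr1c14 was at 0 counts in the knockout-labelled libraries, against 13, 7 and 14 in control, and Akr1c19 had 2, 0 and 4 against 4, 5 and 8 counts. Akr1c6, Akr1c20 and Akr1c21 had 0 counts in all 6 libraries, as did Akr1d1, a steroid reductase of bile acid synthesis. Akr1e1, an anhydrofructose reductase in the same cluster, had 14.1, 12.7 and 11.2 CPM in knockout-labelled and 17.0, 18.4 and 19.2 CPM in control libraries, 1.44-fold lower.

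Near-zero genes made up a large part of the list. In both groups 25 of the 60 averaged under 1 CPM, 19 of these were not tested, and 6 had no count in any library. Another 9 had counts in control but 0 in all 3 knockout-labelled libraries, and 2 of those were tested, Akr1b7 and Aldh1b1. With both set to their bound, the median log2 fold change of the 41 tested genes was -1.36. It could not move, since both bounds still lie below it. The reverse was seen for 1 gene, Gstm4, which had 2 counts in EphA4 knockout replicate 3 and 0 elsewhere, under the limit of 3 counts.

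Of the 19 genes with a mean of at least 10 CPM over all 6 libraries, 17 were lower, 0 were higher, 7 fell at least 2-fold, and the median log2 fold change was -0.93. Over all tested genes, at any level, 38.8% were lower, 32.7% higher and 20.1% lower by at least 2-fold. The shares among all genes of at least 10 CPM were not taken. Per kilobase of merged exons, Akr1a1 held 84.6% of the summed Akr1 level in the knockout-labelled libraries and 72.6% in control. Akr1b8 held 11.4% of it in control. Aldh18a1 held 58.4% of the Aldh level in knockout-labelled and 46.6% in control libraries, and Gstp1 46.5% and 39.6% of the Gst level.

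**Figure D4:**
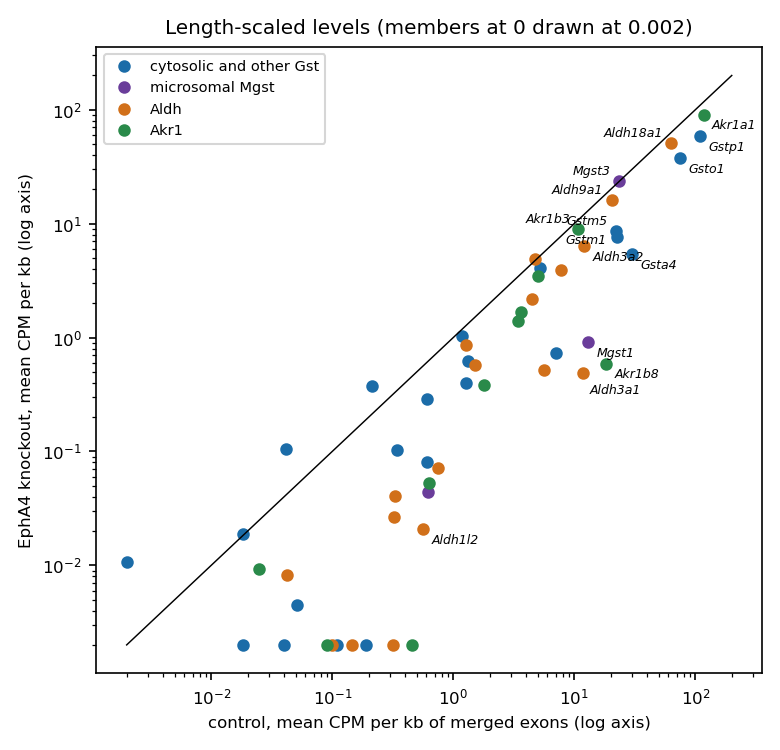
Mean TMM-scaled CPM per kilobase of merged exons in EphA4 knockout (y, log axis) against control (x, log axis), for the 54 genes with any count; the line marks equality and genes at 0 are drawn at 0.002. Akr1b8, Aldh3a1 and Mgst1 lie far below the line among genes above 10 in control, while Mgst3 lies on it.

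Several of the genes lie beside each other, and their calls are to be read against the 38.8% lower of all tested genes. In the group Akr1b3, Akr1b8, Akr1b10 and Akr1b7, Akr1b3 was 1.20-fold lower, Akr1b10 2.18-fold and Akr1b8 30.9-fold. Akr1b7 was at least 21.3-fold lower but entered the test through control, so its direction is not counted as a result. Along the mu cluster on chromosome 3, 3 of 4 tested genes were lower. Gsta4, Gsta1 and Gsta2 had log2 fold changes of -2.48, -1.66 and -1.72, the last with an SE of 1.35 and not called. Aldh9a1 and Mgst3, neighbours on chromosome 1, had log2 fold changes of -0.33 and 0.00.

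Promoters were searched for the core of the antioxidant response element, TGACNNNGC, and for the core bound by the AHR receptor, GCGTG, on both strands. The windows run from 250 bases before to 50 after a start site, from RefSeq on GRCm38.p6, and 51 of the 60 genes matched the table. The antioxidant core was found for 7 of the 51 genes, or 13.7%, and for 14.0% of all 27025 genes in the table. The AHR core was found for 16 of the 51, or 31.4%, and for 35.2% of all. Both shares are close to those of all genes, and a match is a description of letters only. The promoters of Mgst1 and Gstm5 are shown because they carry the antioxidant core and their genes were called lower by at least 2-fold at over 10 CPM in control. Aldh9a1, also called lower and over that level, carries the core too but fell 1.25-fold and is not shown. The core is in capitals and the lower-case letters are the rest of the window. Its leftmost base lies 56 bases before the start site in the only 1 of 2 RefSeq windows of Mgst1 that holds it, at chr6:138140277-138140576 on the plus strand, where the match is on the reverse strand. In Gstm5, at chr3:107895604-107895903 on the plus strand, that base lies 42 bases before the start site, and the core overlaps an AHR core.
Mgst1: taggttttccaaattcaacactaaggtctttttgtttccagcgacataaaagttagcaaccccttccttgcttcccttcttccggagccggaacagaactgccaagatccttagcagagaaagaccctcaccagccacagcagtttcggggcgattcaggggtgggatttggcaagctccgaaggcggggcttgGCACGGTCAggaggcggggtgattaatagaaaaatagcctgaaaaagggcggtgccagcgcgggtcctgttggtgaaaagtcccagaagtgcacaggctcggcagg
Gstm5: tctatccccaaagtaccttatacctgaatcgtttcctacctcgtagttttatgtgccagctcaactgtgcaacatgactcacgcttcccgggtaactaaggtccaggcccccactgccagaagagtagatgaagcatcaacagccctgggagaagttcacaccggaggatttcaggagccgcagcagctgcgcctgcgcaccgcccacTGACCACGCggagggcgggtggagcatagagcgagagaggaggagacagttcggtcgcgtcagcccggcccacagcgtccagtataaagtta

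Genes of the same pathways were described from lists, to be read against the 38.8% lower and 32.7% higher of all tested genes. The NRF2 list had 4 higher, 12 lower and 2 not passing of 18 tested, with a median log2 fold change of -0.36. Its 3 largest called changes were those of Cbr3, Nqo1 and Taldo1. Cbr3, a carbonyl reductase, averaged 0.274 ± 0.109 CPM in knockout-labelled and 2.86 ± 0.696 CPM in control libraries (SD, n = 3 each). Nqo1, a quinone reductase, averaged 0.211 ± 0.0998 and 0.627 ± 0.286 CPM, and Taldo1, of the pentose phosphate pathway, 98.0 ± 1.83 and 186 ± 4.96 CPM. Nqo1 was near zero, with 11, 4 and 8 counts in knockout-labelled and 11, 28 and 33 counts in control libraries. These ranges overlap, and its adjusted p was 0.042 in edgeR. Among the knockout-labelled libraries only EphA4 knockout replicate 1 reached the filter level of 0.271 CPM for Nqo1. Cbr3 was under that level in EphA4 knockout replicate 2, at 0.163 CPM, and above it in every control library. The counts and the median of the list include both genes. Nfe2l2, Keap1 and Txnrd1 are added after their values were seen. Nfe2l2, which encodes NRF2 itself, averaged 96.0 ± 4.50 CPM in knockout-labelled and 118 ± 2.61 CPM in control libraries (SD, n = 3 each, called lower), and its inhibitor Keap1 85.0 ± 1.58 and 87.2 ± 3.37 CPM (not called). Txnrd1, the thioredoxin reductase, was higher at 347 ± 5.05 CPM against 279 ± 7.73 CPM in control. The list of glutathione synthesis, recycling and peroxidases had 2 higher, 9 lower and 4 not passing of 15 tested, with a median of -0.37. The largest called changes were of Glrx, a glutaredoxin, at 2.82 ± 0.196 CPM in knockout-labelled and 7.15 ± 0.278 CPM in control libraries, of the cystine transporter gene Slc7a11, at 47.3 ± 1.43 and 112 ± 9.65 CPM, and of Chac1, which degrades glutathione, at 19.3 ± 1.41 and 36.6 ± 1.37 CPM, all lower. The 2 higher genes, named because they are the only ones, encode the subunits of the rate-limiting enzyme of glutathione synthesis. Gclc averaged 44.5 ± 0.882 CPM in knockout-labelled and 37.0 ± 0.476 CPM in control libraries, and Gclm 80.6 ± 2.51 and 54.5 ± 5.35 CPM.

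Other oxidoreductases of carbonyls, alcohols and retinol had 3 higher, 12 lower and 3 not passing of 18 tested, with a median log2 fold change of -1.55. Dhrs3, which turns retinaldehyde back to retinol, averaged 0.192 ± 0.0250 CPM in knockout-labelled and 19.1 ± 2.03 CPM in control libraries (SD, n = 3 each). Xdh, xanthine dehydrogenase, averaged 0.579 ± 0.299 and 40.1 ± 5.33 CPM, and the carbonyl reductase Cbr1 0.369 ± 0.301 and 12.2 ± 1.81 CPM. Dhrs3 was under the filter level of 0.271 CPM in every knockout-labelled library and so entered the test through control. Cbr1 was under it in EphA4 knockout replicate 3. Cbr3, given above, is also among the lower genes of this list and was under it in EphA4 knockout replicate 2. Of the AHR list 5 genes were tested, 2 higher and 3 lower, with a median of -0.48. Nqo1, given above, was near zero with overlapping ranges. Cyp1b1, a target of the receptor, was lower at 16.0 ± 0.937 CPM in knockout-labelled and 28.9 ± 0.118 CPM in control libraries. The receptor gene Ahr was higher at 23.0 ± 0.632 and 13.2 ± 0.493 CPM. Tiparp, another target, was the other gene called higher, at 77.3 ± 3.25 CPM in knockout-labelled and 65.1 ± 4.43 CPM in control libraries.

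Marker genes were checked for the cell type and for other cells. Of 10 markers of squamous carcinoma, 8 were tested, 5 of them higher and 3 lower, with summed levels of 5760 to 5820 CPM in knockout-labelled and 5230 to 5300 CPM in control libraries. Krt8, Krt18, Cdh1, Cd44 and Itga6 were higher. Epcam was lower, at 627 CPM in knockout-labelled and 954 CPM in control libraries, as were the keratins Krt14, at 1.83 and 3.72 CPM, and Krt17, at 0.274 and 0.754 CPM. Krt17 reached 0.271 CPM in EphA4 knockout replicate 2 alone of its group and entered the test through control, so its direction is not counted as a result. Krt8, Krt18, Epcam and Cdh1 were abundant, while the basal markers Krt5 and Trp63 were at or near 0 in both groups. Of 8 fibroblast markers 5 were tested, all lower, with sums of 1.93 to 2.03 CPM in knockout-labelled and 48.3 to 51.4 CPM in control libraries. Among these, Col1a1, Col3a1, Dcn and Pdgfrb were under the filter level of 0.271 CPM in every knockout-labelled library. They entered the test through control, so their shared direction is not counted as a result. Dcn, Lum and Thy1 were at 0 in the knockout-labelled libraries and Lum also in control. Col1a2, not tested, went the other way, with 8, 11 and 10 counts in knockout-labelled and 4, 0 and 1 counts in control libraries. The summed fibroblast markers were thus lower where the genes described above were lower, and their part in those falls was not tested. Of 8 leukocyte markers 2 were tested, Csf1r higher and Cd68 lower, with sums of 11.8 to 13.4 CPM in knockout-labelled and 22.1 to 24.8 CPM in control libraries, and Adgre1, Cd3e and Itgam were at 0 in all. The sum of 6 endothelial markers was at most 1.06 CPM in knockout-labelled and 1.46 CPM in control libraries, and the 1 tested did not pass. Of 6 hepatocyte markers none was tested, with sums of at most 0.0544 CPM in knockout-labelled and 0.168 CPM in control libraries. In bulk RNA, fewer cells of a type and less RNA per cell cannot be told apart.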

How the data were processed

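Raw counts, 1 table with a row for each gene symbol, were deposited by the authors and analysed unchanged. Per the submitters' processing notes, reads were aligned with STAR to GRCm39; software versions, the counter, its strandedness and the gene models it used were not found in the labels. Without a strand setting, reads of genes that overlap on opposite strands cannot be told apart, which touches Aldh16a1, Aldh1l1, Aldh1l2, Aldh5a1, Aldh6a1, Aldh7a1, Akr1b7, Gstm5 and Gstz1. Chromosomes, exon lengths and windows of 50 bases came from GENCODE M21, built on an earlier assembly, so gene coordinates are not printed.

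Genes were filtered with filterByExpr (15199 of 28042 with any count kept), scaled by TMM and tested with edgeR 4.0.16 in R 4.3.3 (glmQLFit, glmQLFTest; 6 libraries, 1 term for the label, two-sided). Benjamini-Hochberg adjustment ran over all tested genes, with calls at 0.05. Standard errors were obtained from the fold change and the root of the F statistic. CPM values of all genes use the same scaled library sizes. A fold against a group at 0 counts is a bound against 3 counts over the group, from library totals; such floors and the exact 95% intervals cover counting error only. One count equals 0.0239 to 0.0285 CPM.

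The genes and lists were chosen with earlier results of these data known. Full values were given for genes called with an absolute log2 fold change of at least 1 and a mean of at least 1 CPM in either group, and for the most abundant of each family; further values were chosen after they were seen. Libraries of the same label differed by more than counting noise, with a chi-square of 3.97 to 27.7 for each degree of freedom, highest with EphA4 knockout replicate 3. Counts were also simulated over 15194 genes, with only 50 genes changed at each of 1.5, 2, 4 and 32-fold. Of each 50, 23, 29, 42 and 50 were recovered, and 9.43% of calls were false. In the data themselves 71.5% of tested genes were called, a far larger share, so neither the recovery nor the false share carries over to them. The simulation raised control means under 1 CPM to 1 CPM, so recovery of genes near zero in both groups was not measured. Alternatives, named in the closing section, included DESeq2 1.42.0. Figures were drawn with matplotlib 3.10.9.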

Additional observations from a re-analysis of the deposited data

How the results depend on the processing

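The alternatives were relative log expression factors, library size alone, no filter on low counts, a filter of 5 CPM in 3 libraries, DESeq2, a replicate block, each library left out, and, added after the data were seen, pseudogenes left out. Under all of them 0 genes of the families were called higher and Epha4 was called higher. The number called lower was 34 to 39, except for 22 of 24 tested with the filter of 5 CPM, where fewer genes could be tested. The median log2 fold change was -1.69 with no filter and -0.97 with that filter, because other genes entered it, and -1.24 to -1.48 with 1 library left out. With 1 library left out, 10045 to 11338 genes were called in the whole table and 34 to 39 genes of the families were lower. Same-numbered samples did not deviate together (correlations -0.003, 0.029 and 0.008), so the numbers were not taken as pairs. With the replicate block 35 genes were lower and 10339 genes were called in the whole table, against 10867 without it. Of the 41 genes, 5 changed a call or a direction anywhere. Mgst3 turned to -0.0053 with library size alone, -0.0627 with no filter, -0.0007 with the replicate block and -0.0216 without EphA4 knockout replicate 1, where leaving out a library gave -0.0216 to 0.1399, and Aldh16a1 to -0.0081 with no filter, none of them called. The others were Aldh4a1, Gstm7 and Gstp2, given above. Genes under about 1 CPM rest on few counts, which limits their folds.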

Other observations

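Aldh2, the main mitochondrial acetaldehyde dehydrogenase, has a symbol that the selection did not match, and was looked at after its values were seen. It averaged 202 ± 5.54 CPM in the knockout-labelled and 327 ± 8.91 CPM in the control libraries (SD, n = 3 each), a log2 fold change of -0.69 without overlap of the groups. Per kilobase of merged exons this was 39.4 CPM in knockout-labelled and 63.8 CPM in control libraries, beside 50.7 and 62.9 CPM for Aldh18a1.

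A list of other conjugating enzymes and epoxide hydrolases had 0 higher, 5 lower and 1 not passing of 6 tested, with a median log2 fold change of -1.53, beside 38.8% lower and 32.7% higher of all tested genes. Ephx1, the microsomal epoxide hydrolase, had 0 counts in all knockout-labelled libraries and averaged 4.26 ± 0.325 CPM in the control libraries (SD, n = 3). Ugt1a7c, a glucuronosyltransferase, had 0 counts in all knockout-labelled libraries and 29, 11 and 20 in the control libraries. Ephx1 and Ugt1a7c thus entered the test through control, and their direction is not counted as a result. The count and the median of the list include them. Sult2b1, a sulphotransferase of cholesterol, averaged 20.8 ± 2.82 CPM in knockout-labelled and 69.2 ± 2.09 CPM in control libraries (SD, n = 3 each). Pumps that export conjugates had 1 higher, 2 lower and 2 not passing of 5 tested, with a median of -0.25, and the glutathione conjugate pump gene Abcc1 was lower, at 149 ± 3.48 CPM in knockout-labelled and 190 ± 8.57 CPM in control libraries. Abcc5 was lower too, at 23.3 ± 0.745 and 34.0 ± 0.994 CPM, and Abcc4 higher, at 89.3 ± 0.556 and 78.3 ± 2.53 CPM (SD, n = 3 each).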
